A study of Homo sapiens with 8 samples.

Results

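The genes of the neuromuscular junction and its acetylcholine receptor were followed in Rh41 cells. This human line was established from an alveolar rhabdomyosarcoma, a soft-tissue cancer mainly of the young whose cells resemble muscle precursors, and is positive for the PAX3-FOXO1 gene fusion. The 10 genes were taken by symbol from the deposited table of 60234 genes, and each symbol stood on 1 identifier. They are the receptor subunits CHRNA1, CHRNB1, CHRND, CHRNE and CHRNG, the signalling genes AGRN, LRP4, MUSK and DOK7, and the receptor anchor RAPSN. The labels give 4 control libraries and 4 libraries named siG9a, which had a knockdown of G9a. This enzyme, the product of EHMT2, adds methyl groups to lysine 9 of histone H3. All 8 libraries come from the same fusion-positive line, and no time after knockdown or content of the control treatment is given. The series title writes shG9a where the sample labels write siG9a. The design text calls the replicates biological. No motor neuron is part of these cultures as labelled, so the data concern the muscle side of the synapse.

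At the neuromuscular junction, acetylcholine released by the motor nerve opens a pentameric channel in the muscle membrane. In embryonic and denervated muscle the channel holds the α, β, δ and γ subunits, and in mature innervated muscle the ε subunit takes the place of γ. Agrin binds LRP4, which activates the receptor kinase MuSK together with its adaptor Dok-7, and rapsyn then anchors the receptors in clusters. Several of these genes are driven in muscle by MYOD1 and related factors, which bind E-boxes, while N-boxes bind ETS factors that raise synaptic transcription.

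Libraries held between 1458825 and 1938665 reads assigned to genes, and values are CPM, the reads of a gene scaled to a library of 1e6 reads. Reads come from transcript ends, so CPM were set side by side between genes without a correction for length. In GENCODE release 29 another gene overlaps the last 500 bases of CHRNA1, CHRNE, AGRN and LRP4. The strand setting is not known, so some reads of these genes may belong to the other gene. A single read was worth 0.516 to 0.685 CPM, and 3 reads, the floor used here, lay between 1.55 and 2.06 CPM. The symbol EHMT2 stood on 7 identifiers, and the row with the highest mean CPM was used. Control libraries 1 to 4 had 57.6, 68.1, 87.3 and 88.3 CPM of EHMT2, and siG9a libraries 19.6, 35.1, 33.1 and 58.5 CPM. It was lower in 4 of 4 pairs of the same replicate number, as were 15.3% of all genes tested. EHMT2 in siG9a replicate 4 was still just above control replicate 1. The log2 change was −1.10, with limma adjusted p-values of 0.191 without and 0.000472 with the replicate number as a block. Muscle markers were present, with MYOD1 from 608 to 864 CPM in the 6 libraries of numbers 1, 2 and 4, but MYF5 was at 0 in all 8. The libraries of number 3 stood apart in both groups: MYOD1 was at 95.3 CPM in control and 128 CPM in siG9a. The sum of 8 muscle markers was 210 and 187 CPM in these, and 807 to 1469 CPM in the other 6. The sum of 8 neural and epithelial markers ran the other way, at 9661 and 8974 CPM in number 3 and 1830 to 2968 CPM in numbers 2 and 4, carried by NEFM and NEFL. Number 1 was low in this sum, at 188 CPM in control and 228 CPM in siG9a. Of the 6 motor neuron markers CHAT, SLC18A3 and SLC5A7 were at 0, and the sum was 5.68 to 16.0 CPM, with MNX1 at 2.74 to 9.75 CPM and ISL1 at 0.61 to 7.38 CPM. The Schwann cell marker SOX10 was at 0, while the sum over the Schwann cell list was 15.4 to 129 CPM in control and 38.8 to 149 CPM in siG9a, mostly ERBB3. The 6 fibroblast markers summed to 55.03 to 72.3 CPM in control and 13.7 to 71.1 CPM in siG9a. The part of these differences in the results below was not tested beyond the values without number 3. In bulk samples, fewer cells of a type and less RNA per cell cannot be told apart.

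The question put to the 2 groups was which of the 10 transcripts differed after knockdown. With the replicate number as a block, limma called CHRNA1, MUSK and DOK7 lower. Of these only CHRNA1 kept the call without any 1 of the 4 pairs. CHRNA1 and MUSK were lower in 4 of 4 pairs, as were 15.3% of all genes tested, and DOK7 in 3. CHRND, the δ subunit, had a log2 change near 0. CHRNE and CHRNG were at 5 reads or fewer in every library of either group. CHRNG was under the filter of a mean of 1 CPM, so 9 genes were tested. Limma without a block called 0 of these 9, where it called 0% of all 15092 genes tested and 12.5% had an unadjusted p under 0.05. DESeq2 gave no adjusted p for CHRNE, MUSK and LRP4, with or without the block. Without a block it called 0 of the other 6 and 292 (2.59%) of the 11283 genes it gave one, and edgeR called 0 of 9 and 0 of all genes. With the replicate number as a block, limma called 3 of 9, all lower, where it called 6.52% of all genes as lower and 4.86% as higher (11.4% in all). EdgeR with the block called 2 of 9, CHRNA1 and DOK7, against 6.59% of all genes called lower, and DESeq2 with the block called the same 2, of 6 with an adjusted p, against 5.32%. Without number 3, limma without a block called these 2 against 1.95%, and with the block against 4.59%. The median log2 change of the 9 was −0.69, where that of all genes tested was 0.02. This median is the value of LRP4 itself, −0.69 ± 0.64 (SE, limma adjusted p = 0.715 without a block). LRP4 was lower in 2 of 4 pairs, on 20 reads in control and 17 in siG9a. Below the median, MUSK, CHRNE and DOK7 rested on 2, 4 and 12 reads over the siG9a libraries. Of 7 tested muscle markers, DES, CDH15 and FGFR4 were also called lower with the block, and MYOD1 was not. Of 4 tested fibroblast markers 1 was called lower with the block. No tested motor neuron, Schwann cell, neural or epithelial marker was called. The part of these markers in the changes of the junction genes was not tested.

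**Figure D1:**
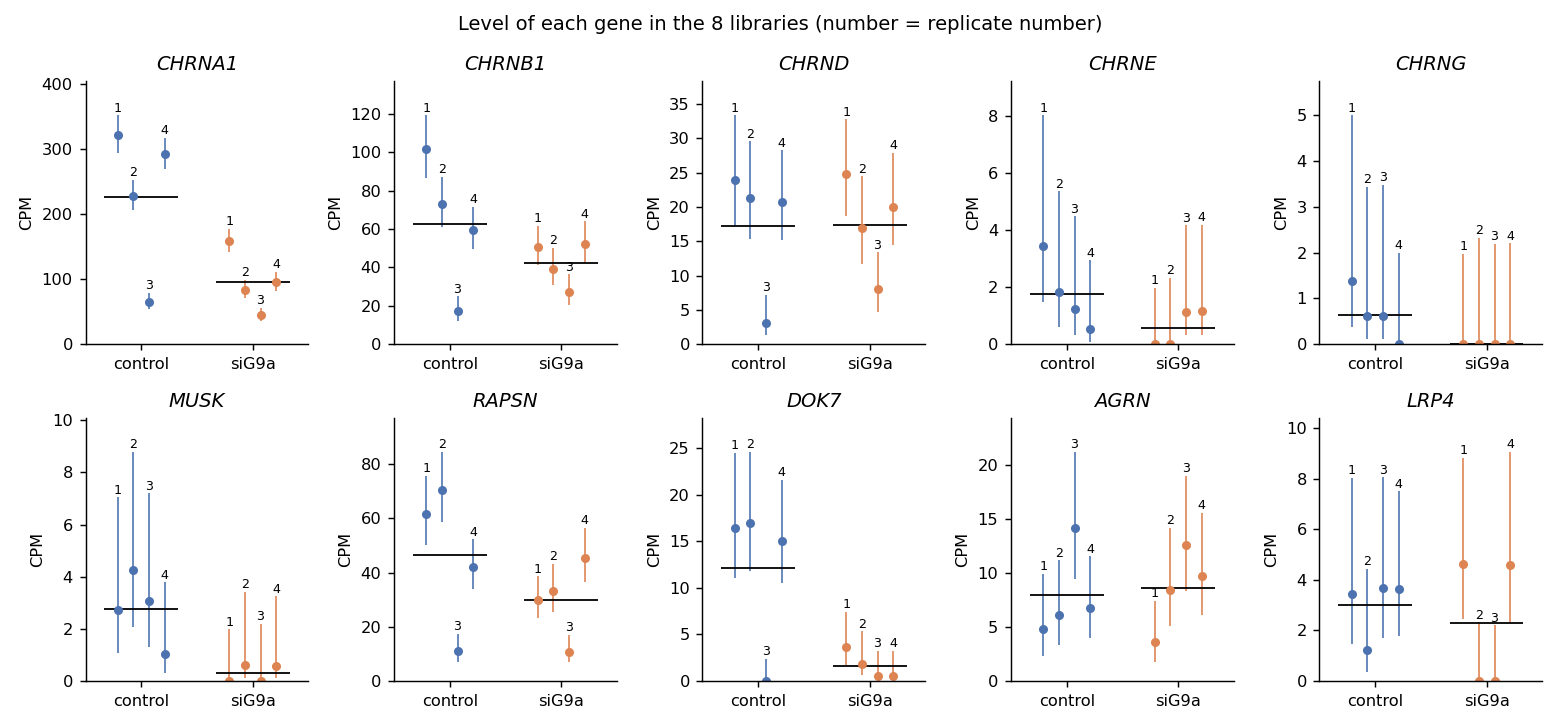
CPM of each gene in the 8 libraries (vertical axis, linear, own scale per gene), with control in blue and siG9a in orange. Points are libraries marked by replicate number, bars are 95% Wilson intervals of counting error and black lines are group means. CHRNA1 runs from 65.2 to 321 CPM in control and from 44.5 to 158 CPM in siG9a, and the number 3 libraries are the lowest in both groups for CHRNA1, CHRNB1, CHRND and RAPSN.

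CHRNA1 encodes the α subunit, which carries most of the acetylcholine binding site and is present in more copies per channel than any other subunit. It was the most abundant of the 10 transcripts. In control it measured 321, 228, 65.2 and 291 CPM in replicates 1 to 4, and in siG9a 158, 83.5, 44.5 and 95.2 CPM. All 4 siG9a libraries were below control replicates 1, 2 and 4, and only control replicate 3 lay inside the siG9a range. Without number 3 the groups did not overlap, as for 11.5% of all genes tested with siG9a below control. The siG9a level was 49.4%, 36.7%, 68.3% and 32.7% of the control of the same number, lower in 4 of 4 pairs, a pattern seen in 15.3% of all genes tested. The group means were 226 ± 114 and 95.4 ± 47.2 CPM (SD, n = 4 each). Its log2 change was −1.15 ± 0.48 (SE, limma adjusted p = 0.359) without a block. With the block its SE was 0.17 (limma adjusted p = 7.52e-05). Without both libraries of number 3 the change was −1.35 ± 0.25 (SE), with a limma adjusted p of 0.00796 without a block, and without control replicate 3 alone it was −1.67 with an adjusted p of 0.0259, where 1.44% of all genes were called lower. The antisense gene AC010894.3 overlaps the 3′ end of CHRNA1 in GENCODE release 29 and measured 0 to 2.87 CPM. EHMT2 was at 34.0%, 51.6%, 37.9% and 66.3% of control in pairs 1 to 4, and a relation of these values to CHRNA1 was not tested.

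The promoters of CHRNA1 and MUSK, both of which fell with the block, and of CHRND and CHRNE, which did not pass, are shown as examples of the 2 kinds of motif named above. The number of motifs does not sort the genes that fell from the rest. Each run is the 250 bases before the start of the RefSeq transcript (build GRCh38.p14), read 5′ to 3′ on the strand of the gene, from chr2:174764473-174764722 (minus strand), chr9:110668541-110668790 (plus), chr2:232525910-232526159 (plus) and chr17:4903099-4903348 (minus). Capitals mark E-boxes (CANNTG, which reads the same on both strands) and N-boxes (CCGGAA, or TTCCGG where it lies on the other strand).
CHRNA1: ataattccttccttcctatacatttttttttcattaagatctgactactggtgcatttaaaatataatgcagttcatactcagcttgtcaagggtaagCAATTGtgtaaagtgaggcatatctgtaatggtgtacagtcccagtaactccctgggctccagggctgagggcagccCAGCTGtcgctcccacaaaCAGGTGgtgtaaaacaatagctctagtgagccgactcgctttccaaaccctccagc
MUSK: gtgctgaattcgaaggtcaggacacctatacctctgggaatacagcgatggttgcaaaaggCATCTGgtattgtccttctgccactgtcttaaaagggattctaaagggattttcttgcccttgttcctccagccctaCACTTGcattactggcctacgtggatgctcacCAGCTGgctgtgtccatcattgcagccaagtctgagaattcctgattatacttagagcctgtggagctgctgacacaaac
CHRND: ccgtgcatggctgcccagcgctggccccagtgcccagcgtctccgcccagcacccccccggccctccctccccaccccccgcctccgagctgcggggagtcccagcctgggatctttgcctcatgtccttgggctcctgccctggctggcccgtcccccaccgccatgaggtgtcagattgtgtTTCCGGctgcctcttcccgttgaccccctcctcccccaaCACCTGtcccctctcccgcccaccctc
CHRNE: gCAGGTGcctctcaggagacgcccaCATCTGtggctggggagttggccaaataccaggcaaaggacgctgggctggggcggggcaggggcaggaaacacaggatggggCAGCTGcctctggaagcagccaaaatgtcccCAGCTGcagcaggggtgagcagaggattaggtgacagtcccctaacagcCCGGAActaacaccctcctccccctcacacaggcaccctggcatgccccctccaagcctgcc
The CHRNA1 window holds 3 E-boxes, which begin 152, 75 and 56 bases before the start, and no N-box. The MUSK window holds 3 E-boxes, at 189, 112 and 80 bases, and no N-box. CHRND has 1 E-box at 27 bases and 1 N-box at 66 bases, and CHRNE has 4 E-boxes and 1 N-box at 62 bases. Of the windows not shown, that of CHRNB1, which was not called, holds 4 E-boxes, and those of DOK7, which fell with the block, hold 1 at the first start and 0 at the other, with no N-box in any of them. Over 35116 promoter windows of the same length, 61.8% hold an E-box and 14.5% an N-box, and 4911 hold the CAGCTG form found in CHRNA1, MUSK and CHRNE. Of the 10 genes 6 had an entry, with 7 starts in all, and 6 of these 7 windows hold an E-box and 2 an N-box. A match is a string of letters and not a measured binding site.

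CHRNB1 encodes the β subunit. It measured 101, 72.9, 17.2 and 59.7 CPM in control and 50.6, 39.3, 27.4 and 52.2 CPM in siG9a. Without number 3 the groups did not overlap and siG9a was below control, as for 11.5% of all genes, but number 3 went the other way, at 159% of its control. The log2 change was −0.35 ± 0.22 (SE, limma adjusted p = 0.343 with the block). The same fit without number 3 gave −0.69 ± 0.22 (SE, limma adjusted p = 0.0663).

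CHRND encodes the δ subunit, which forms a binding site with α. It measured 24.0, 21.3, 3.07 and 20.8 CPM in control and 24.8, 17.0, 7.99 and 20.1 CPM in siG9a. Apart from number 3 the groups overlapped fully, with siG9a at 103%, 79.7% and 96.6% of control in pairs 1, 2 and 4. In pair 3 it was 260%, resting on 5 and 14 reads. Its log2 change was 0.21 ± 0.29 (SE, limma adjusted p = 0.712 with the block), and without number 3 it was −0.10 ± 0.28 (SE, limma adjusted p = 0.870 with the block).

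CHRNE and CHRNG encode the ε and γ subunits, which mark the adult and the fetal channel. CHRNE rested on 5, 3, 2 and 1 reads in control and on 0, 0, 2 and 2 reads in siG9a. The pooled ratio of control to siG9a was 2.93 (exact 95% interval 0.867 to 12.6, counting error only), and the limma adjusted p was 0.339 with the block. CHRNG rested on 2, 1, 1 and 0 reads in control and on 0 in all 4 siG9a libraries. Every library was at or under 3 reads for CHRNG, so no fold is given. CHRNE overlaps MINK1, C17orf107 and GP1BA on the other strand in GENCODE release 29, with MINK1 reaching the last 500 bases of the gene, and no source says if strand was used in counting.

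Set against each other within a library, the subunits did not keep one proportion. Of the reads on the 5 subunit genes, CHRNA1 held 71.1%, 70.2%, 74.6% and 78.2% in control libraries 1 to 4. In siG9a it held 67.8%, 59.7%, 54.9% and 56.5%. The groups did not overlap, although the Wilson interval of siG9a replicate 1 (63.3% to 71.9%) reached into the control values. CHRND held 5.32%, 6.55%, 3.52% and 5.58% in control and 10.6%, 12.1%, 9.86% and 11.9% in siG9a, also without overlap. This is not a separate result, since the shares have 1 total and a lower CHRNA1 share raises the others. Mean CHRND itself was 17.3 CPM in control and 17.4 CPM in siG9a. No rate over all genes was computed for these shares. There were 13.4, 10.7, 21.2 and 14.03 CHRNA1 reads for each CHRND read in control and 6.40, 4.93, 5.57 and 4.74 in siG9a, number 3 included. A ratio to CHRND that fell in this way without overlap was found for 3.43% of the 15091 other genes, and the ratio was picked after its values were seen. The ratio to CHRNB1 did overlap, with 3.16, 3.13, 3.79 and 4.88 CHRNA1 reads for each CHRNB1 read in control and 3.13, 2.12, 1.63 and 1.82 in siG9a, nearly equal in pair 1. CHRNB1 held 16.0% to 22.5% of subunit reads in control and 21.6% to 33.8% in siG9a, with overlap. The reads on all 5 genes came to 451, 324, 87.3 and 372 CPM in control and 234, 140, 81.1 and 169 CPM in siG9a, so number 3 was lowest in each group. The ε and γ genes together gave 7, 4, 3 and 1 reads in control and 0, 0, 2 and 2 in siG9a. In siG9a, 0 reads of CHRNG allow a share of up to 0.662% to 2.11% of the subunit reads by the floor of 3 reads, and the 95% Wilson upper limits are 0.841% to 2.63%.

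**Figure D2:**
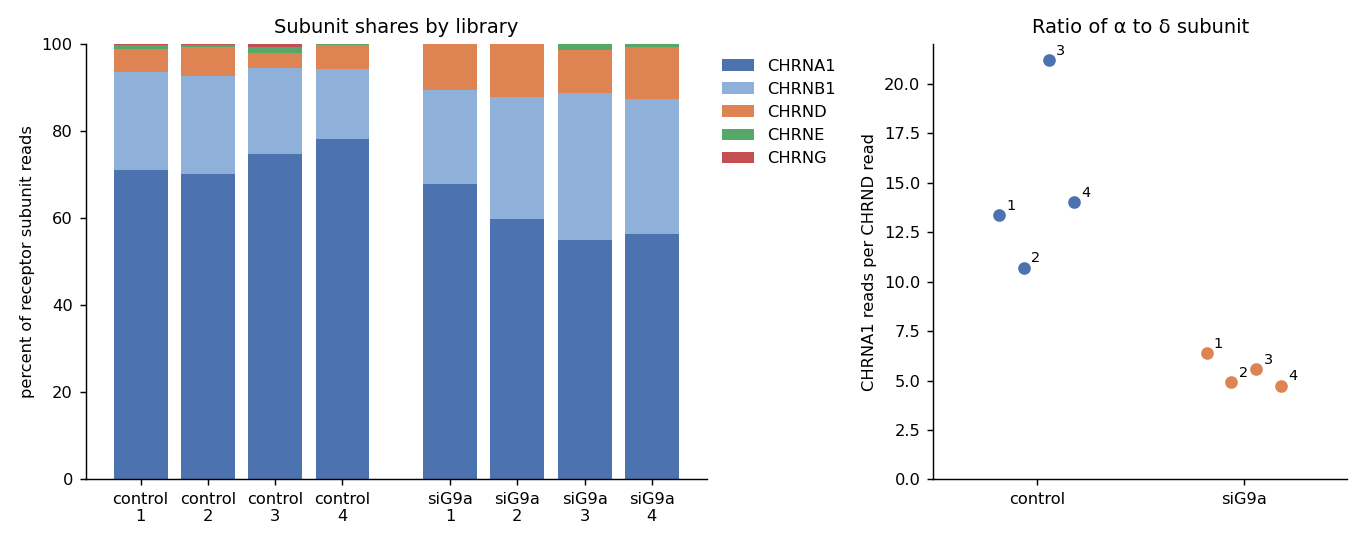
Left, share of each receptor subunit gene in the reads on the 5 genes (vertical axis, percent) for the 8 libraries. Right, CHRNA1 reads per CHRND read (linear axis from 0), points marked by replicate number, from 10.7 to 21.2 in control and from 4.74 to 6.40 in siG9a.

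MYOD1, the factor that specifies skeletal muscle, offers a second reference within the library, because it was low in number 3 in both groups and showed a log2 change of −0.03 (limma adjusted p = 0.935 with the block). For each 100 MYOD1 reads there were 37.1, 27.9, 68.4 and 34.1 CHRNA1 reads in control and 19.3, 13.7, 34.8 and 11.4 in siG9a. This ratio was lower in 4 of 4 pairs, as for 11.6% of other genes, and siG9a replicate 3 was above control replicates 2 and 4. For CHRND the same ratio was 2.78, 2.60, 3.23 and 2.43 in control and 3.02, 2.79, 6.25 and 2.39 in siG9a. CHRND per MYOD1 thus ran from 2.39 to 3.23 in 7 libraries, with siG9a replicate 3 above them. RAPSN reads for each 100 MYOD1 reads were 7.14, 8.625, 11.6 and 4.93 in control and 3.65, 5.47, 8.48 and 5.40 in siG9a. This was lower in pairs 1, 2 and 3 and higher in pair 4.

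**Figure D3:**
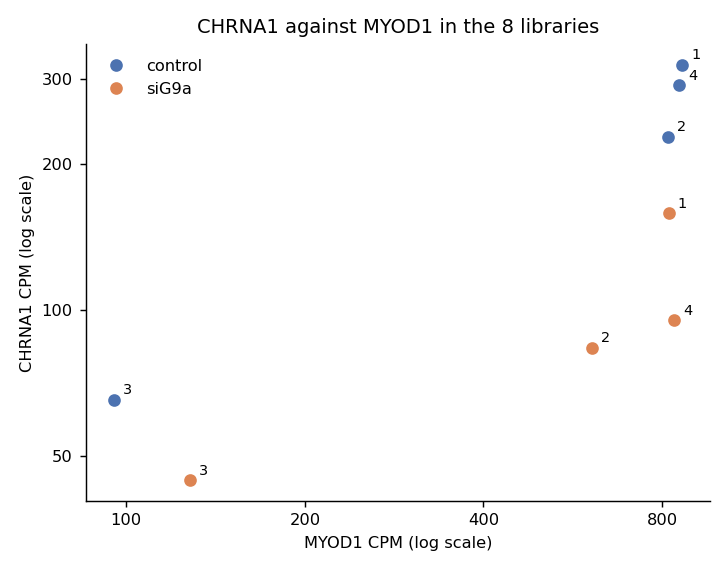
CHRNA1 CPM (vertical, log scale) against MYOD1 CPM (horizontal, log scale) in the 8 libraries, marked by replicate number, control in blue and siG9a in orange. The number 3 libraries sit at the lower left, at 95.3 and 128 CPM of MYOD1. At 608 to 864 CPM of MYOD1 the 3 siG9a libraries lie below the 3 control libraries in CHRNA1, as for 11.5% of all genes tested.

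Upstream of the receptor, AGRN encodes agrin, the nerve and muscle proteoglycan that starts clustering. It measured 4.80, 6.08, 14.1 and 6.75 CPM in control and 3.61, 8.47, 12.6 and 9.75 CPM in siG9a. It was the only one of the 10 genes that was highest in number 3 in both groups, as were 20.1% of all genes tested, and control and siG9a overlapped. The log2 change was 0.10 ± 0.34 (SE, limma adjusted p = 0.892 with the block). LRP4, the agrin receptor, measured 3.43, 1.22, 3.69 and 3.63 CPM in control and 4.64, 0, 0 and 4.59 CPM in siG9a. The siG9a libraries thus fell on both sides of the control range, with 9 and 8 reads in numbers 1 and 4 and 0 in numbers 2 and 3. The log2 change of LRP4 was −0.69 ± 0.48 (SE, limma adjusted p = 0.393 with the block). The antisense gene LRP4-AS1 overlaps its 3′ end in GENCODE release 29 and measured 1.71 to 11.0 CPM, so reads of the pair may not be told apart. AGRN is overlapped at its end by AL645608.5, on the same strand.

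MUSK, the muscle-specific receptor kinase, was the only one of the 9 tested genes without overlap between the groups, as for 3.45% of all genes with siG9a below control. It measured 2.74, 4.25, 3.07 and 1.04 CPM in control, on 4, 7, 5 and 2 reads, and 0, 0.61, 0 and 0.57 CPM in siG9a, on 0, 1, 0 and 1 reads. Unlike CHRNA1, it was not low in control replicate 3. The pooled ratio of control to siG9a was 9.58 on 18 against 2 reads (exact 95% interval 2.29 to 85.1, counting error only). On the log2(CPM + 1) scale, which understates such a change, the difference was −1.50 ± 0.44 (SE, limma adjusted p = 0.210) without a block. The block gave an SE of 0.47 (limma adjusted p = 0.0372). With the block the edgeR adjusted p was 0.0609, and limma lost the call without number 1 (0.151), number 2 (0.148) or number 3 (0.145), while it kept it without number 4 (0.0269).

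DOK7 encodes the adaptor that binds MuSK inside the cell and is needed for its activation. It measured 16.5, 17.0, 0 and 15.1 CPM in control and 3.61, 1.82, 0.57 and 0.57 CPM in siG9a. The 3 control libraries other than number 3 lay close together and above all siG9a libraries, while control replicate 3 had no read at all. A lack of overlap without number 3, with siG9a below control, was found for 11.5% of all genes tested. The siG9a level was 22.0%, 10.7% and 3.79% of control in pairs 1, 2 and 4. In siG9a these rested on 7, 3 and 1 reads, so pairs 2 and 4 were at or under the floor of 3 reads. In pair 3 siG9a was the higher, with 1 read against 0 in control. The pooled ratio of control to siG9a was 7.2 on 81 against 12 reads (exact 95% interval 3.9 to 14.5, counting error only). Limma put DOK7 at −1.82 ± 0.83 (SE, log2, adjusted p = 0.398) without a block, and the block gave an SE of 0.50 (adjusted p = 0.0176). Without number 3 it was −2.65 ± 0.46 (SE, limma adjusted p = 0.0056 without a block), and edgeR with the block and all libraries gave −2.80 with an adjusted p of 0.000679. Without number 1, 2 or 4 the paired limma fit lost the call, with adjusted p-values of 0.0806, 0.148 and 0.162.

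RAPSN encodes rapsyn, the scaffold that binds the receptor from the inside. It measured 61.7, 70.5, 11.1 and 42.1 CPM in control and 29.9, 33.3, 10.9 and 45.3 CPM in siG9a. It was near 50% of control in pairs 1 and 2, at 48.5% and 47.2%, and near 100% in pairs 3 and 4, at 98.0% and 108%. Its log2 change was −0.50 ± 0.23 (SE, limma adjusted p = 0.171 with the block).

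**Figure D4:**
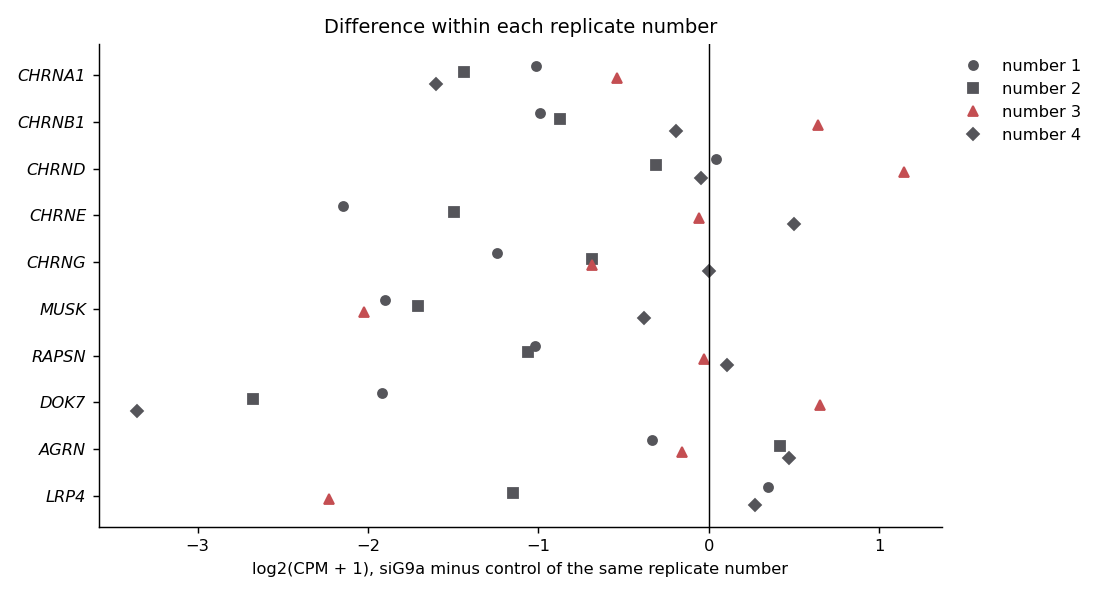
Difference in log2(CPM + 1) between siG9a and the control library of the same replicate number (horizontal axis) for each of the 10 genes, 1 symbol per number, with number 3 in red. CHRNA1 and MUSK lie below 0 in 4 of 4 pairs, and number 3 is the highest of the 4 for CHRNA1, CHRNB1, CHRND and DOK7.

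The levels of the 10 transcripts spanned a wide range. Over the 8 libraries the mean CPM was highest for CHRNA1 (161), followed by CHRNB1 (52.6), RAPSN (38.1), CHRND (17.4), AGRN (8.27), DOK7 (6.89), LRP4 (2.65), MUSK (1.53), CHRNE (1.16) and CHRNG (0.324). This order over both groups held in neither group: in control DOK7 (12.1) was above AGRN (7.94), and in siG9a DOK7 (1.64) was below LRP4 (2.31) and MUSK (0.295) below CHRNE (0.573). The SDs between libraries overlapped for each pair of neighbours in control except CHRNA1 and CHRNB1, at 226 ± 114 and 62.8 ± 35.0 CPM. In siG9a these overlapped too, at 95.4 ± 47.2 and 42.4 ± 11.5 CPM (SD, n = 4 each). Of the 10 genes, 4 were lowest in number 3 in both groups (CHRNA1, CHRNB1, CHRND and RAPSN), where 19.8% of all genes tested were. The genes whose levels ran most like CHRNA1 over the 8 libraries, among 8897 with a mean of at least 10 CPM, were MLLT11 (Pearson r = 0.992), BID (0.989) and ITGA7 (0.988), the last an integrin chain of muscle that binds laminin. These correlations are over 8 libraries that share both the groups and the number 3 shift, and are given as a description.

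Of 68 further genes of the junction, 67 were found by symbol and 49 were tested. Limma without a block called 0 of 49, where it called 0% of all genes. With the block it called 4 lower and 2 higher, where 6.52% and 4.86% of all genes were called in those directions. The median log2 change of the 49 was −0.21. The 11 neuronal receptor subunits had 2 members over the filter, CHRNA5 and CHRNA10, and neither was called. In the basal lamina list 1 of 6 was called: HSPG2, which encodes perlecan, the proteoglycan that anchors acetylcholinesterase, went from 411 ± 213 to 193 ± 93.1 CPM (SD, n = 4 each), a log2 change of −1.01 with limma adjusted p-values of 0.511 without and 7.52e-05 with the block. ACHE itself, the esterase gene, did not exceed 1.22 CPM in any library. HSPG2 in control replicate 3 was at 93.5 CPM, 18.1% of the mean of the other control libraries.

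Among 15 tested adaptors and kinases downstream of MuSK, 2 were called lower and 1 higher with the block. CRKL, a Crk-family adaptor recruited by Dok-7, measured 41.2 to 59.2 CPM in control and 17.0 to 38.4 CPM in siG9a. The groups did not overlap, as for 3.45% of all genes with siG9a below control. The log2 change was −0.90 ± 0.22 (SE, limma adjusted p = 0.00774 with the block, 0.226 without). Without number 2 the paired limma fit lost CRKL (adjusted p = 0.138). MACF1, a linker of microtubules and actin, had a log2 change of −0.58 (limma adjusted p = 0.00571 with the block, 0.351 without, and 0.0504 with the block and without number 3). CTTN, the actin-binding cortactin, was higher without overlap (as for 3.88% of all genes), going from 105 ± 21.3 to 144 ± 1.51 CPM (SD, n = 4 each; limma adjusted p = 0.0483 with the block, 0.358 without). CTTN did not pass with the block in edgeR (adjusted p = 0.0581) or DESeq2 (0.144), nor in limma without any 1 of the 4 pairs (0.0721 to 0.248).

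Of 10 genes of the postsynaptic dystrophin complex and cytoskeleton, ANK3 was called with the block. ANK3, an ankyrin that links membrane proteins to the cytoskeleton, went from 25.5 ± 6.23 to 11.6 ± 4.68 CPM (SD, n = 4 each). The groups did not overlap, as for 3.45% of all genes with siG9a below control. The limma adjusted p of ANK3 was 0.0131 with the block and 0.212 without. The paired limma fit lost ANK3 without number 1 (adjusted p = 0.0721) or 3 (0.142). UTRN, which encodes utrophin, and DTNB missed the threshold in the paired limma fit (adjusted p = 0.0514 and 0.05002) and passed it in edgeR with the block (0.0460 and 0.0451). UTRN was also lower without overlap, as was LAMA5 of the basal lamina list (limma adjusted p = 0.0799 with the block). None of 10 neuregulin signalling genes and transcription factors was called with the block. NRG1 and ERBB3 had unadjusted limma p-values of 0.0355 and 0.00808 with the block, in opposite directions. Their log2 changes were −1.02 for NRG1, on 21 reads in control and 9 in siG9a, and 0.57 for ERBB3. MYOG, a factor that drives receptor genes in denervated muscle, measured 3.69 to 11.7 CPM in control and 1.14 to 9.18 CPM in siG9a. In the list of receptor assembly and glycosylation 1 of 6 was called: GFPT1, the first enzyme of the hexosamine pathway, went from 91.6 ± 26.1 to 131 ± 27.3 CPM (SD, n = 4 each). It was higher in 4 of 4 pairs, as for 14.9% of all genes (limma adjusted p = 0.0257 with the block, 0.438 without). GFPT1 lost the call in DESeq2 with the block (adjusted p = 0.0774) and in the paired limma fit without number 2 (0.139), 3 (0.119) or 4 (0.0519). Without both number 3 libraries and without a block, HSPG2 alone of the 49 was called.

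**Figure D5:**
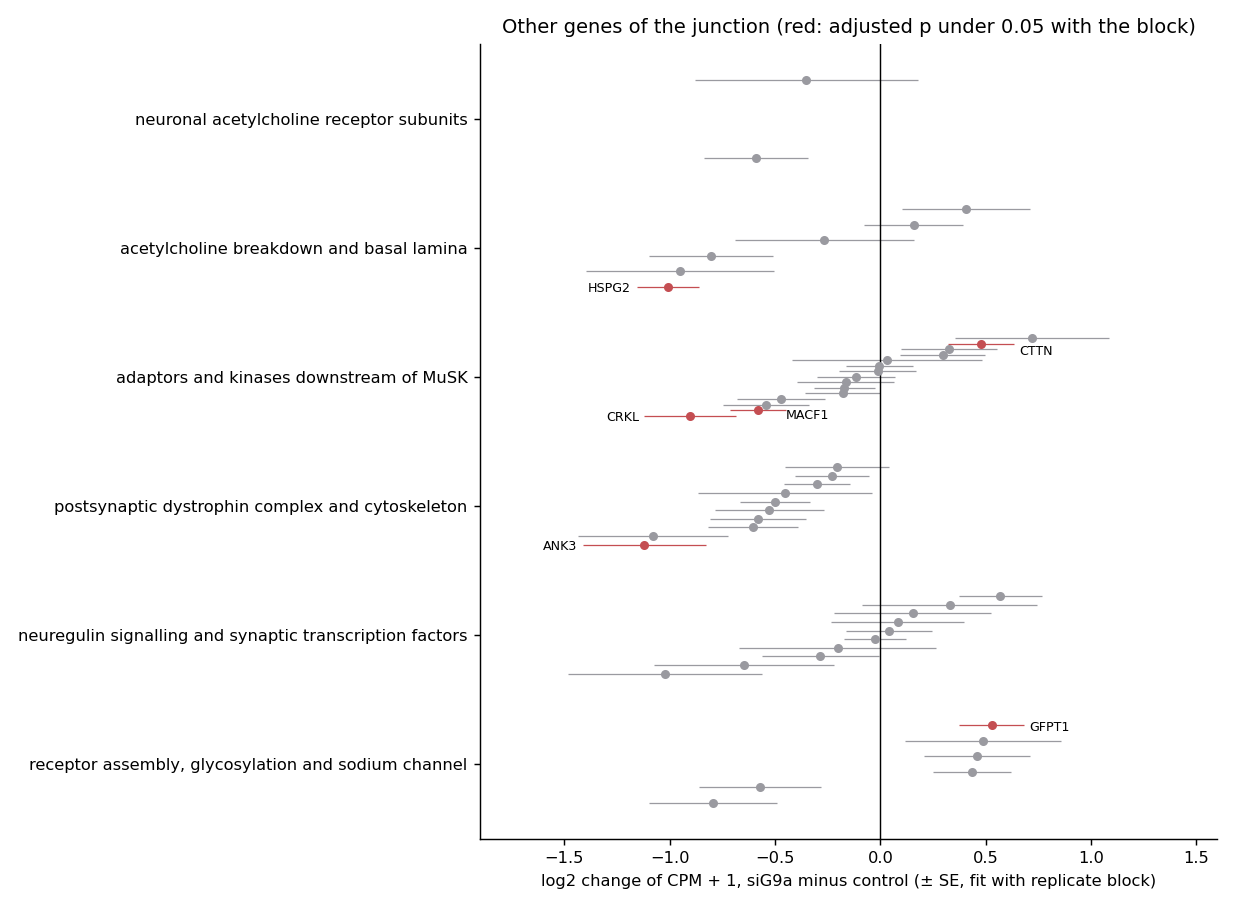
Log2 change of CPM + 1 (horizontal axis, siG9a minus control, bars are SE of the limma fit with the replicate block) for the 49 tested genes of 6 lists. Red points have an adjusted p under 0.05: HSPG2, CRKL, MACF1 and ANK3 lower, CTTN and GFPT1 higher.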

How the data were processed

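Messenger RNA of 8 Rh41 cultures was made into 3′ end libraries with a QuantSeq kit and read from 1 end at 75 bases, per the labels' protocols. The authors deposited 1 table of CPM, rounded to 2 decimals. The submitters' processing notes name FastQC 0.11.8, Trim Galore, STAR 2.5.0a, HTSeq 0.8.0 and edgeR 3.28, and the builds GRCh38 and hg19, with no role given. The strand setting and annotation are not given in the sources used here.

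The lowest step between values in each library gave the CPM of 1 read, and 100% of non-zero values were whole reads within 0.0051 CPM. The main test was limma 3.58.1 (trended eBayes, two-sided, Benjamini-Hochberg) on log2(CPM + 1) over the 15092 genes whose mean over the libraries reached 1 CPM, without a block and at an adjusted p of 0.05. Fold changes on this scale understate those of low genes. Recovered reads were also tested with edgeR 4.0.16 (quasi-likelihood) and DESeq2 1.42.0. The code of the fits was tested on simulated data, which says nothing about the calls reported.

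The replicate number was tried as a block. Deviations from the group means of same-numbered libraries correlated at 0.50, 0.10, 0.67 and 0.13 over 15092 genes for numbers 1 to 4 (unrounded 0.104 for number 2), so the numbers were taken to pair the libraries. This pairing comes from the data, since the labels do not say what a number marks, and siG9a replicate 4 correlated more with control replicate 2 (0.144). P-values without the block measure the spread between these cultures of 1 line. Those with the block measure the spread left after the replicate number is fitted, that is, of the differences within pairs.

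Other alternatives were the pseudocount, the filter on low values, the scaling, eBayes without trend and leaving out libraries. Leaving out numbers 1, 2 or 4, and the other settings combined with the block apart from number 3, were chosen after seeing the data. The members and lists were chosen with earlier results of these data known. Named were the 10 genes, EHMT2, in each list up to 3 genes called with the block that had the smallest adjusted p, and the 3 genes most correlated with CHRNA1. CHRNA5, CHRNA10, ACHE, LAMA5, UTRN, DTNB, NRG1, ERBB3, MYOG and MYOD1 were named after their values were seen. Promoters came from RefSeq (GRCh38.p14) and overlaps from GENCODE release 29, and no deposited coordinate was used. The level of 1 marker gene is not reported here.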

Additional observations from a re-analysis of the deposited data

Results flagged for a closer look

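Of 19 groups of 4 libraries examined, 3 held a library whose gap to the nearest other library, divided by the range of the group, was above the 95% critical value of Dixon's ratio for 4 samples. Chance gives this in about 5% of groups. CHRND in control replicate 3 was at 3.07 CPM, where the other control libraries were at 20.77 to 23.99 CPM. DOK7 in control replicate 3 was at 0 CPM, where the others were at 15.06 to 17.01 CPM. LRP4 in control replicate 2 was at 1.22 CPM, where the others were at 3.43 to 3.69 CPM, on 2 reads against 5 to 7.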

How the results depend on the processing

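Depth limited MUSK, CHRNE, CHRNG and LRP4, which had 9 reads or fewer in every library, and a mean of at least 5 CPM left out CHRNE, MUSK and LRP4. It also limited DOK7, which was at or under 3 reads in 4 of the 8 libraries. The main fit called 0 of the 9 tested members, 0 of the 49 other junction genes and 0 of all genes. With the replicate block these counts were 3, 6 and 1717 in limma, 2, 7 and 1711 in edgeR and 2, 4 and 936 in DESeq2, which gave an adjusted p for 6 of the 9, 43 of the 49 and 11581 of all genes, and the block changed no other member's call. DESeq2 without the block called 292 of all genes, and limma with no filter 18. Without both number 3 libraries the counts were 2, 1 and 413 without the block and 2, 3 and 1078 with it. With the block they were 1, 4 and 951 without number 1, 1, 3 and 668 without number 2, and 2, 6 and 1393 without number 4. With the block they were also 3, 6 and 1694 with median-ratio scaling, 1, 5 and 1363 with a pseudocount of 0.1, and 1, 3 and 840 with no filter. Leaving out 1 library at a time without the block gave 0 to 2 members, 0 of the others and 0 to 300 of all genes, the highest of each without control replicate 3. With the block, DOK7 lost its call with a pseudocount of 0.1 (limma adjusted p = 0.254) and with no filter (0.118), and MUSK with the same settings (0.0803 and 0.0795). The log2 change of CHRND turned to −0.42 without control replicate 3 and to −0.10 without number 3, with and without the block. That of AGRN turned to −0.07 without control replicate 1, −0.10 without siG9a replicate 3, −0.006 without number 2 and −0.024 without number 4, the last 2 with the block. Over the fits without 1 library CHRND ran from −0.42 to 0.52 and AGRN from −0.10 to 0.42. The cause of these shifts was not tested. CHRNA1 kept its direction in 27 of 27 alternatives, and DOK7 in 27 of 27. So did CHRNB1 and RAPSN in 27 of 27, and CHRNE, MUSK and LRP4 in 26 of 26. Of these, CHRNB1, RAPSN, CHRNE and LRP4 were called in no alternative. In limma with all libraries the block, the filter and eBayes without trend leave the log2 value as it is, so these settings could not turn a direction. All alternatives also drew on the same libraries, so the tally is not separate evidence of direction. CHRNB1 was at −0.044 without control replicate 1. The median of all genes moved by under 0.1 under each scaling.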
